A study of Mus musculus with 18 samples.

Results

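Colony stimulating factors (CSFs) and their receptors were examined in bone marrow-derived macrophages (BMDMs), which are macrophages grown from bone marrow in culture. The 8 genes were chosen by name, whatever their values: the ligand genes Csf1, Csf2 and Csf3 and the receptor genes Csf1r, Csf2ra, Csf2rb, Csf2rb2 and Csf3r. All 8 were found among the 24485 genes listed in each library, and all 8 had a mean of at least 10 normalized counts over the 18 libraries, that is, counts divided by the size factor of their library. Every library came from Il10-/- mice on the C57BL/6J background, so the controls also lacked the cytokine interleukin 10 (IL-10). The methods of the study give the donors as 12-week-old male mice, 3 in number, and the labels describe the groups as matched. Marrow was cultured in medium conditioned by L929 cells, a fibroblast line whose supernatant is used as a source of CSF1 protein, so that protein was supplied to all groups. The 6 groups of 3 libraries were unstimulated cells, cells given the BET bromodomain inhibitor (+)-JQ1 at 500 nM, cells given IL-10 at 10 ng/mL, and the same 3 treatments with lipopolysaccharide (LPS) at 50 ng/mL. Treatment lasted 12 hours and LPS or PBS was then added for 4 hours, so that all cells were collected at 16 hours. Cells given neither JQ1 nor IL-10 are untreated in the labels, whereas the methods name a vehicle control for that step.

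CSFs are secreted proteins that direct the growth, survival and function of myeloid cells. CSF1 (M-CSF) signals through the tyrosine kinase CSF1R and keeps macrophages alive, and its messenger RNA is made by many stromal cells as well as by activated macrophages. CSF2 (GM-CSF) binds an alpha chain, encoded by Csf2ra, which pairs with the common beta chain encoded by Csf2rb to signal through JAK2 and STAT5. In the mouse, Csf2rb2 encodes a close relative of the common beta chain that serves the IL-3 receptor. CSF3 (G-CSF) binds CSF3R, the receptor best known from neutrophils, and signals mainly through JAK2 and STAT3. LPS, a bacterial cell wall component, is a known inducer of the 3 ligand genes in macrophages, and JQ1 blocks the bromodomains with which BET proteins bind acetylated histones.

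The totals of expected counts ran from 6781952 to 28289498 per library, so that 3 counts, taken as the detection floor, were worth 0.106 to 0.442 CPM. Such floors cover counting error only. The knocked-out gene Il10 still had 27.1 to 176.7 normalized counts in every library, and counts per gene do not show which part of it was transcribed. All 8 macrophage markers listed were detected in every group, at a summed 14317 to 29066 TPM. Lyz2 was the highest of the 8 in every group, and the list includes Csf1r, a gene under study. The 6 fibroblast and stromal markers summed to at most 10.3 TPM and the 3 endothelial markers to at most 11.3 TPM. The 6 markers of T, B and NK cells summed to at most 1.09 TPM, and the 4 of mast cells and basophils to at most 0.67. Csf1 had a mean of 2.92 TPM in unstimulated cells, and any part of stromal cells in it was not tested. The scale mattered. When libraries were scaled by their total counts in place of median-of-ratios size factors, the median of all genes shifted to -0.997 on the log2 scale for LPS against unstimulated cells, from -0.07. The corresponding medians were 0.28, from -0.10, for JQ1 during LPS and -0.17 for JQ1 without LPS. The share of called genes that were higher fell with that scaling from 49.0% to 20.1% for LPS and rose from 42.5% to 64.9% for JQ1 during LPS and from 48.7% to 71.1% for IL-10 during LPS. It went from 48.0% to 26.8% for JQ1 without LPS, from 47.1% to 25.6% and from 49.6% to 21.0% for LPS in JQ1-treated and IL-10-treated cells, and from 42.9% to 61.2% for LPS + JQ1 against LPS + IL-10. For the interactions of LPS with JQ1 and with IL-10 it went from 42.6% to 85.4% and from 53.7% to 73.6%. All 33 called differences of members with a fitted fold had the same sign within each of the sequencing lanes 7 and 8. Except for Csf2rb2 with JQ1 during LPS, the groups compared did not overlap, so that sign was fixed in advance. The agreement therefore does not test for an effect of the lane. Libraries were bulk RNA, so fewer cells and less RNA per cell cannot be told apart.

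LPS changed 7 of the 8 genes in untreated cells by the Wald test of DESeq2 (adjusted p under 0.05), with 4 higher and 3 lower, where 31.6% of the 14965 genes tested were called higher and 32.9% lower. With JQ1 present, LPS changed 6 of the 8 against a background of 58.6%, and with IL-10 present 7 of the 8 against 67.0%. JQ1 changed 5 of the 8 without LPS, against 45.7% of all genes tested. During LPS it changed 6, of which 2 were higher (background 24.4%) and 4 lower (background 32.9%). IL-10 during LPS raised 3 (background 8.38%) and lowered 1 (background 8.81%). IL-10 without LPS changed 0 of the 8 by DESeq2, against 2.81% of all genes. At an unadjusted p under 0.05 there were 2 by DESeq2, 2 by edgeR, and 2 or 1 by limma on log2(TPM + 1) or log2(TPM + 0.1), and edgeR and limma also gave 0 after adjustment. LPS + JQ1 differed from LPS + IL-10 in 5 of the 8, against 55.3%. The comparisons with the LPS group share its 3 libraries, as do those with unstimulated cells, so they are not independent of each other.

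**Figure D1:**
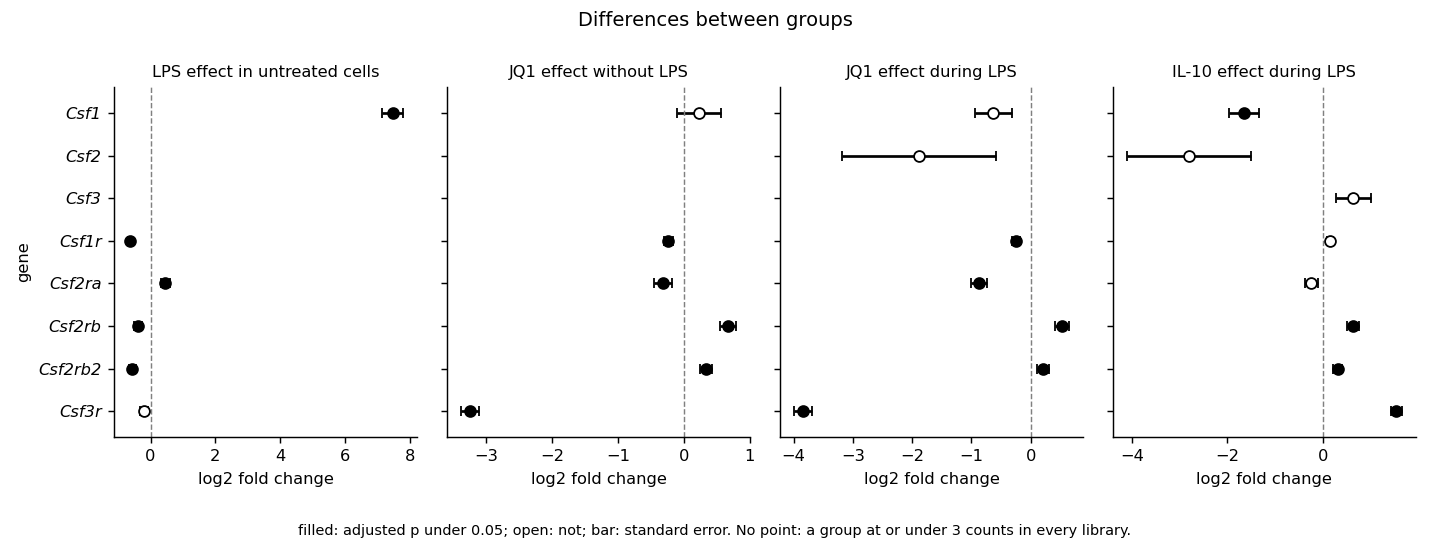
Log2 fold changes (horizontal axis) of the 8 genes in 4 comparisons, with standard errors from DESeq2 over 3 libraries a group; filled points had an adjusted p under 0.05, and no point is drawn where a group had at most 3 counts in every library. Csf1 stood far to the right with LPS at 7.48, and Csf3r far to the left with JQ1 at -3.25 without LPS and -3.84 during LPS.

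Csf1, the gene of the ligand that maintains macrophages, was low without LPS and, by TPM, second only to Csf1r among the 8 in the LPS group. Unstimulated cells had 113.4, 59.2 and 66.4 normalized counts in replicates 1, 2 and 3, and LPS-stimulated cells 16020, 14585 and 12366. All LPS libraries lay far above all unstimulated libraries. The rise was 178-fold (7.48 ± 0.32 SE on the log2 scale, n = 3 per group), with a DESeq2 adjusted p of 5.50e-116. Cells given JQ1 alone had 104.6, 71.0 and 108.1 normalized counts and cells given IL-10 alone had 86.4, 66.1 and 56.5. Both groups overlapped the unstimulated libraries, with DESeq2 adjusted p of 0.610 and 1.

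During LPS, Csf1 was highest without treatment, intermediate with JQ1 and lowest with IL-10, and no library of these 3 groups overlapped another group. LPS + JQ1 libraries had 9894, 8421 and 9381 normalized counts, and LPS + IL-10 libraries had 7021, 3256 and 3390. Replicate 1 of LPS + IL-10 stood above the other libraries of its group. IL-10 lowered Csf1 3.14-fold (-1.65 ± 0.31 SE, DESeq2 adjusted p 2.55e-06), and the difference was -2.11 without replicate 1 of LPS + IL-10. For JQ1 the difference was 1.55-fold (-0.63 ± 0.31 SE, 95% interval -1.24 to -0.02) and the DESeq2 adjusted p of 0.070 missed the threshold. With the lane as a term it was 0.0329 and by edgeR 0.0414. DESeq2 gave 6.56e-06 with only the LPS and LPS + JQ1 libraries in the fit, and 2.51e-05 without the libraries of replicate 1. By contrast, limma on log2(TPM + 1) gave an adjusted p of 0.259. Total-count scaling gave -0.26 with a DESeq2 adjusted p of 0.509, or -0.53 relative to the median of all genes. Between the treated groups, Csf1 was 2.03-fold higher under JQ1 than under IL-10 (1.02 ± 0.31 SE, DESeq2 adjusted p 0.00247), although the adjusted p was 0.0906 when the libraries of replicate 3 were left out.

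The effect of IL-10 on Csf1 differed with and without LPS, by -1.45 ± 0.46 SE (DESeq2 adjusted p 0.0234; interaction background 7.44% of genes, 2 of the 7 members with an adjusted p called). That call rested on few libraries: leaving out replicate 2 or 3 of unstimulated cells, 1 or 2 of IL-10, 1 or 2 of LPS, or 2 of LPS + IL-10 gave adjusted p of 0.0532 to 0.122 for Csf1. The corresponding difference for JQ1 was -0.87 ± 0.46 SE, with a DESeq2 adjusted p of 0.117, and 0.0164 without replicate 1 of unstimulated cells. Of the 8 members, 2 passed the interaction test of LPS and JQ1, where 41.5% of all genes did.

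Csf1 lies on the minus strand of mouse chromosome 3 (mm9, chr3:107543966-107563387). The 250 bases before its annotated start are shown because Csf1 rose with LPS and NF-kB is a known mediator of the LPS response. Capitals mark matches to GGGANNNNCC, an NF-kB motif, on either strand (chr3:107563388-107563637, minus strand):

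Csf1: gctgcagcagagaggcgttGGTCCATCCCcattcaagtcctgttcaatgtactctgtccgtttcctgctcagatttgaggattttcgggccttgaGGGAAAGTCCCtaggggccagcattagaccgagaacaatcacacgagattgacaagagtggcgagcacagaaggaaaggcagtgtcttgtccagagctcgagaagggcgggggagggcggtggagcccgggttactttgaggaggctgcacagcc

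The window held 3 matches, of which 2 overlapped by all but 1 base, and 18.7% of the 22380 windows of this length before protein-coding genes held at least 1. A match in letters is a description and not evidence of binding.

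Csf2, the gene of GM-CSF, was detected with LPS and not without it. All 9 libraries without LPS had 0 counts, which allows up to 0.106 to 0.442 CPM depending on the library. LPS libraries had 312.5, 366.0 and 335.2 normalized counts, from 221, 354 and 273 reads. Against the floor of 3 counts per library, Csf2 was at least 108-fold higher with LPS than in unstimulated cells. LPS + JQ1 libraries had 103.8, 89.5 and 81.2 normalized counts, at least 33.1-fold above JQ1 alone. LPS + IL-10 libraries had 132.6, 6.08 and 6.31, from 98, 4 and 7 reads, and were at least 24.3-fold above IL-10 alone, a bound that fell to 3.11-fold without replicate 1 of LPS + IL-10. Both treated groups lay wholly below the LPS group, and the 3 LPS + IL-10 libraries fell on both sides of the LPS + JQ1 libraries.

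The tests of Csf2 depended on which libraries entered the fit, in which DESeq2 estimated 1 spread per gene over all groups. For JQ1 during LPS the difference was 3.69-fold (-1.88 ± 1.30 SE) with a DESeq2 adjusted p of 0.212. With only the LPS and LPS + JQ1 libraries in the fit it was -1.79 with an adjusted p of 2.93e-22, and edgeR gave -1.79 with 0.0133. For IL-10 during LPS the difference was -2.81 ± 1.30 SE with a DESeq2 adjusted p of 0.134, and 0.00703 by edgeR. Without replicate 1 of LPS + IL-10 it was -5.76 with a DESeq2 adjusted p of 3.43e-32. LPS + JQ1 and LPS + IL-10 did not differ by the test over all libraries (0.92 ± 1.30 SE, 95% interval -1.63 to 3.48, DESeq2 adjusted p 0.583), and without replicate 1 of LPS + IL-10 Csf2 was 3.88 higher with LPS + JQ1 (adjusted p 3.37e-15). Replicate 1 of LPS + IL-10 was also the highest of its group for Csf1. It was the only library of its group from lane 7, so lane and library cannot be told apart there. Within lanes 7 and 8 the Csf2 difference for IL-10 during LPS was -1.24 and -5.82. For LPS + JQ1 against LPS + IL-10 it was -0.35 and 3.78. With the lane as a term, IL-10 during LPS gave -3.56 for Csf2 (DESeq2 adjusted p 0.0171).

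Csf2 lies on the minus strand of chromosome 11 (mm9, chr11:54060773-54063169), 15635 bases from Il3, the gene of another cytokine that uses the beta chain. A piece from 84 to 55 bases before its annotated start is shown because it holds, in capitals, a match to GAGATTCC (the CK-1 element known from cytokine promoters) and a match to the NF-kB motif on the other strand (chr11:54063224-54063253, minus strand):

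Csf2: agGAGATTCCacaactcaGGTAGTTCCCcc

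The CK-1 letters were found in 0.737% of the 22380 windows before protein-coding genes. Windows of 5 members were searched (Csf1, Csf2, Csf2ra, Csf2rb2 and Csf3r), and those of Csf3, Csf1r and Csf2rb were not. Matches to the NF-kB motif were found for Csf1, Csf2 and Csf3r. AP-1 letters (TGANTCA, 6.00% of windows) were found in none of these 5 windows, which says only that these letters are not there.

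Csf3, the gene of G-CSF, was the least abundant ligand, at a mean of 2.29 ± 0.56 TPM (SD, n = 3) with LPS. It had 28.3, 32.1 and 39.3 normalized counts in LPS libraries, from 20, 31 and 32 reads, and 1, 0 and 1 reads in unstimulated libraries. The ratio of counts was 56.3, with a 95% interval for counting error of 15.1 to 473, and the DESeq2 adjusted p was 6.39e-08. With LPS + JQ1 it had 1, 0 and 1 reads, so that the LPS group exceeded it by a ratio of 44.5 (95% counting interval 11.9 to 373; DESeq2 adjusted p 1.21e-06). LPS + JQ1 and JQ1 alone were both at or under the floor, and no fold is given. Thus the 3 LPS libraries and the 3 LPS + JQ1 libraries were clearly apart, and the latter overlapped the unstimulated libraries.

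With LPS + IL-10, Csf3 had 60.9, 54.7 and 41.5 normalized counts, all above the LPS libraries. The difference from LPS was 0.64 ± 0.37 SE (95% interval -0.07 to 1.36) and did not pass the DESeq2 test (adjusted p 0.260), while limma on log2(TPM + 1) gave 0.56 with an adjusted p of 0.000997. Against IL-10 alone, with 0 reads in all 3 libraries, it was at least 26.3-fold higher. The ratio of LPS + IL-10 to LPS + JQ1 was 67.6 (95% counting interval 18.3 to 564; DESeq2 adjusted p 4.56e-08). Csf3 lies on the plus strand of chromosome 11 (mm9, chr11:98562577-98564943).

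**Figure D2:**
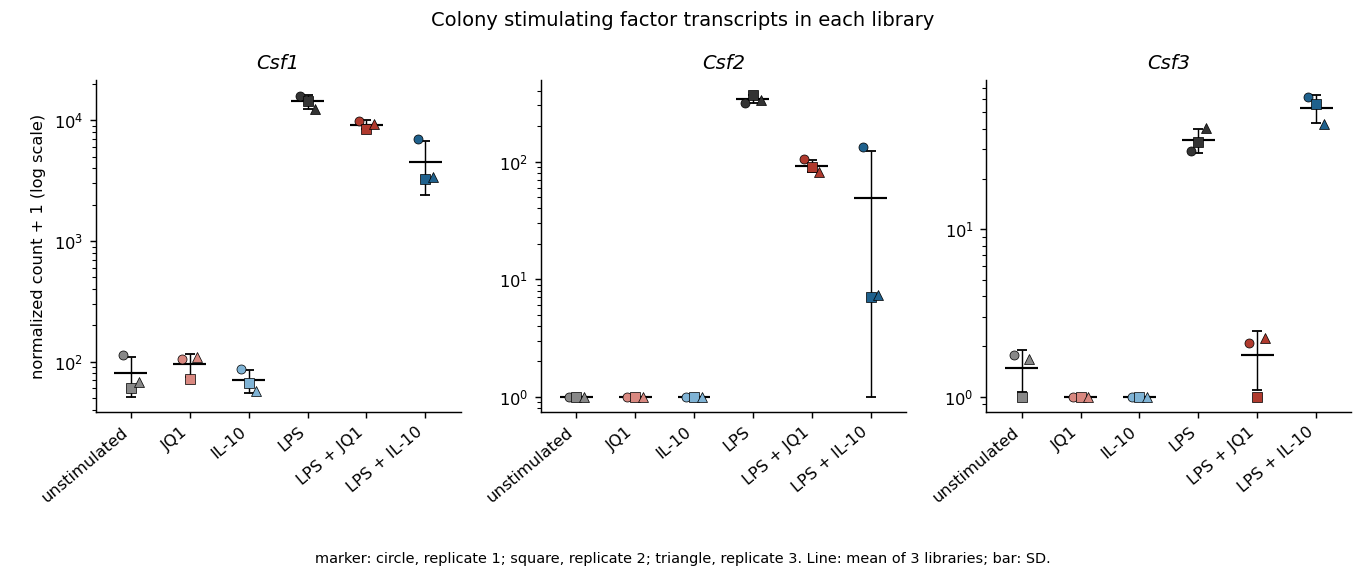
Normalized counts plus 1 (log scale) of Csf1, Csf2 and Csf3 in each of the 18 libraries, by group, with the mean of 3 libraries as a line and the SD as a bar that stops at a count of 0. The 9 LPS libraries stand above the 9 others for Csf1 and Csf2, Csf3 with LPS + JQ1 lies at the level of unstimulated cells, and replicate 1 of LPS + IL-10 (circle) stands above its group for Csf1 and Csf2.

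Csf1r, the gene of the CSF1 receptor and the most abundant of the 8 transcripts in every group, was lower with LPS. Unstimulated libraries had 46771, 43024 and 41012 normalized counts and LPS libraries had 28387, 30288 and 26149. The groups did not overlap, and the difference was 1.54-fold (-0.62 ± 0.07 SE, DESeq2 adjusted p 2.64e-20). LPS also lowered it with JQ1 (-0.64) and with IL-10 (-0.53), and neither interaction passed the test (DESeq2 adjusted p 0.899 and 0.726), although with total-count scaling that of LPS and JQ1 was 0.53 for Csf1r, beside a median of 0.51 over all genes. Under total-count scaling the difference with LPS was -1.55, or -0.55 relative to the median of all genes.

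JQ1 lowered Csf1r modestly. JQ1 libraries had 36741, 38425 and 35964 normalized counts, all below the unstimulated libraries (-0.24 ± 0.07 SE, DESeq2 adjusted p 0.00134, and 0.211 without the libraries of replicate 1). LPS + JQ1 libraries had 23531, 23820 and 23800, all below the LPS libraries (-0.25 ± 0.07 SE, DESeq2 adjusted p 0.000357). That difference in Csf1r during LPS was lost by edgeR (adjusted p 0.0718) and with TMM factors (0.0850). It turned to 0.12 with total-count scaling and to 0.05 by limma on log2(TPM + 1), with adjusted p of 0.104 and 0.573. The medians over all genes in those settings were 0.28 and 0.13, so Csf1r lay below the median in both. LPS + IL-10 libraries had 31452, 33606 and 29241, overlapping the LPS group (0.15 ± 0.07 SE, DESeq2 adjusted p 0.103, and 0.0268 without replicate 2 of LPS and 0.0192 without replicate 3 of LPS + IL-10). Between the treated LPS groups, Csf1r was 1.33-fold lower under JQ1 than under IL-10 (-0.41 ± 0.07 SE, DESeq2 adjusted p 4.71e-09). Under total-count scaling the difference was -0.13 with a DESeq2 adjusted p of 0.0985, beside a median of 0.19 over all genes. Csf1r lies on the plus strand of chromosome 18 (mm9, chr18:61265226-61291803).

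Csf2ra, the gene of the GM-CSF-specific alpha chain, was highest with LPS on the scale of normalized counts. Unstimulated libraries had 3508, 3235 and 2726 normalized counts and LPS libraries had 4717, 4767 and 3549. All LPS libraries lay above all unstimulated ones (0.46 ± 0.14 SE, DESeq2 adjusted p 0.00121), with replicate 3 of LPS only just above replicate 1 of unstimulated cells. The direction depended on the scale, at -0.47 under total-count scaling and -0.32 on log2(TPM + 1), with adjusted p of 0.000364 and 0.00990, although relative to the median of all genes the value under total-count scaling was 0.53. Without the libraries of replicate 2 the DESeq2 adjusted p was 0.0502.

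JQ1 lowered Csf2ra with and without LPS. LPS + JQ1 libraries had 2364, 2244 and 2535 normalized counts, below every LPS library (1.82-fold, -0.87 ± 0.14 SE, DESeq2 adjusted p 6.37e-10). JQ1 libraries without LPS had 2459, 2618 and 2505, also below every unstimulated library (-0.32 ± 0.14 SE, DESeq2 adjusted p 0.0403), a call lost without replicate 1 or 2 of unstimulated cells or any 1 of the JQ1 libraries (adjusted p 0.0619 to 0.207). The effect of JQ1 on Csf2ra differed with LPS by -0.55 ± 0.19 SE (DESeq2 adjusted p 0.0126), and this was lost with TMM factors (0.0652), by edgeR (0.0536) and without replicate 3 of unstimulated cells (0.0599) or replicate 2 of LPS (0.0510). Under total-count scaling the difference was 0.0049 with a DESeq2 adjusted p of 0.985, beside a median of 0.51 over all genes. In JQ1-treated cells LPS did not change Csf2ra by the test (-0.09 ± 0.14 SE, 95% interval -0.35 to 0.18, DESeq2 adjusted p 0.611). LPS + IL-10 libraries had 4244, 3957 and 2881, overlapping the LPS group (-0.24 ± 0.14 SE, DESeq2 adjusted p 0.267, and 0.0413 without replicate 3 of LPS), and Csf2ra was 1.55-fold higher there than with LPS + JQ1 (DESeq2 adjusted p 9.69e-06). Csf2ra lies on the minus strand of chromosome 19 (mm9, chr19:61300305-61304321).

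The beta chain genes moved the other way. Csf2rb, the common beta chain, had 6364, 5074 and 4661 normalized counts in unstimulated libraries and 3979, 4509 and 3805 with LPS. LPS lowered it without overlap (-0.39 ± 0.12 SE, DESeq2 adjusted p 0.00257), although the adjusted p was 0.0515 without replicate 1 of unstimulated cells, the highest of its group. JQ1 libraries had 8162, 9343 and 8211 and LPS + JQ1 libraries had 5459, 6056 and 6184, above every library of their respective controls. JQ1 raised Csf2rb 1.60-fold without LPS (0.68 ± 0.12 SE, DESeq2 adjusted p 1.73e-07) and 1.44-fold during LPS (0.53 ± 0.12 SE, DESeq2 adjusted p 4.48e-05). IL-10 raised it 1.56-fold during LPS (0.64 ± 0.12 SE, DESeq2 adjusted p 2.85e-06), with 5868, 7597 and 5754 normalized counts in LPS + IL-10 libraries. Without LPS the IL-10 libraries had 7133, 7016 and 6580, all above the unstimulated libraries, and the difference of 0.36 ± 0.12 SE had a DESeq2 adjusted p of 0.0810, and of 0.00102 without replicate 1 of unstimulated cells.

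Csf2rb2, the beta chain relative that serves IL-3, followed the same directions with smaller differences under JQ1 and IL-10. Unstimulated libraries had 7368, 6691 and 6614 normalized counts and LPS libraries had 4465, 5114 and 4459 (-0.56 ± 0.09 SE, DESeq2 adjusted p 6.77e-09). JQ1 libraries had 8171, 9214 and 8834, above every unstimulated library (0.34 ± 0.09 SE, DESeq2 adjusted p 0.000812), though on log2(TPM + 1) the difference of 0.14 had an adjusted p of 0.346. These groups were apart, whereas LPS + JQ1 libraries, at 4818, 5608 and 5798, overlapped the LPS libraries. The difference of 0.21 ± 0.09 SE had a DESeq2 adjusted p of 0.0464, which rose to between 0.150 and 0.222 without replicate 1 or 3 of LPS or replicate 2 or 3 of LPS + JQ1. IL-10 during LPS gave 5451, 6661 and 5418, above the LPS libraries (0.32 ± 0.09 SE, DESeq2 adjusted p 0.00589), and an adjusted p of 0.0511 and 0.114 without replicate 1 of LPS and without replicate 2 of LPS + IL-10. LPS + JQ1 and LPS + IL-10 overlapped for both beta chains, with differences of -0.12 (95% interval -0.36 to 0.12) for Csf2rb and -0.11 (95% interval -0.29 to 0.07) for Csf2rb2.

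These genes are neighbors on chromosome 15. Csf2rb2 lies on the minus strand (mm9, chr15:78112947-78136052) and Csf2rb on the plus strand (mm9, chr15:78156420-78184277), 20367 bases apart. Of the stretches of 50 bases in their annotated transcripts, 883 were shared, which is 17.4% of those of Csf2rb and 19.1% of those of Csf2rb2. Reads from such stretches were divided between both genes by the authors' quantification, so their separate counts are uncertain, and the summed counts of both were tested as an alternative: no call on the sum differed from that of either gene except that LPS lowered the sum in IL-10-treated cells (-0.23, DESeq2 adjusted p 0.0388), as it did Csf2rb2 but not Csf2rb alone.

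Csf3r, the gene of the G-CSF receptor, differed more with JQ1, and with IL-10 during LPS, than any other receptor gene, in opposite directions. Unstimulated libraries had 1132, 1321 and 1060.5 normalized counts and JQ1 libraries had 124.5, 124.2 and 119.1. Each JQ1 library lay far below each unstimulated library, by 9.52-fold on average (-3.25 ± 0.14 SE, DESeq2 adjusted p 8.38e-124). During LPS, untreated libraries had 973, 1123 and 942 and LPS + JQ1 libraries had 79.5, 82.1 and 49.2, a difference of 14.3-fold (-3.84 ± 0.16 SE, DESeq2 adjusted p 1.25e-130). The effect of JQ1 differed with LPS by -0.59 ± 0.21 SE (DESeq2 adjusted p 0.0137). This was lost by edgeR (0.0639), with TMM factors (0.0612) and without replicate 3 of LPS + JQ1, the lowest library for Csf3r (0.117). The difference was -0.04 under total-count scaling and 0.15 on log2(TPM + 1), beside medians of 0.51 and 0.36 over all genes.

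LPS + IL-10 gave the highest Csf3r of all groups, at 2704, 3391 and 2797 normalized counts. Every one of these libraries lay above every other library, and the difference from LPS was 2.92-fold (1.55 ± 0.12 SE, DESeq2 adjusted p 4.66e-37). IL-10 alone gave 1507, 1350 and 1341, all above the unstimulated libraries, with a difference of 0.26 ± 0.12 SE and a DESeq2 adjusted p of 0.348. The effect of IL-10 on Csf3r was larger with LPS by 1.28 ± 0.16 SE (DESeq2 adjusted p 2.93e-12). LPS + JQ1 and LPS + IL-10 differed 41.8-fold (-5.38 ± 0.15 SE, DESeq2 adjusted p 1.24e-262). In untreated cells LPS left Csf3r within the spread of the replicates (-0.20 ± 0.12 SE, DESeq2 adjusted p 0.124), while edgeR gave 0.0468 for it and DESeq2 without replicate 2 of LPS 0.0416. Under total-count scaling that value was -1.13, or -0.13 relative to the median of all genes. LPS lowered it in JQ1-treated cells (-0.79 ± 0.17 SE, DESeq2 adjusted p 9.72e-06) and raised it in IL-10-treated cells (1.08 ± 0.12 SE, DESeq2 adjusted p 2.67e-20). The last value was 0.25 under total-count scaling, where the median of all genes was -0.88. Csf3r lies on the plus strand of chromosome 4 (mm9, chr4:125701794-125722219).

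Since CSF3R is known from neutrophils, the list of 9 neutrophil and precursor markers was read beside it. Their summed level was 24.3 to 88.7 TPM in unstimulated libraries, 7.50 to 17.5 with JQ1, 26.2 to 39.5 with IL-10, 35.9 to 51.7 with LPS, 13.3 to 30.1 with LPS + JQ1 and 31.5 to 70.0 with LPS + IL-10. The list thus moved down with JQ1 like Csf3r, and its part in the Csf3r result was not tested. Most of the summed level came from S100a8 and S100a9. In mean normalized counts, unstimulated cells and JQ1 alone had 32.8 and 6.89 for Ltf, 31.3 and 15.7 for Ngp, and 3.04 and 0.611 for Camp, genes of neutrophil granule proteins. LPS and LPS + JQ1 had 20.3 and 11.4 for Ltf, 39.4 and 34.3 for Ngp, and 5.72 and 0 for Camp. Ly6g had 0 counts in every library, and Mpo and Elane had at most 1 count in any library. Of the 6 dendritic cell markers, Itgax made up nearly all of the sum, which was 69.6 to 94.0 TPM in unstimulated libraries and 38.5 to 43.0 with JQ1. Some macrophage markers also moved down with JQ1. In mean normalized counts, unstimulated cells and JQ1 alone had 2061 and 211 for Fcgr1, and 10137 and 3261 for Itgam. LPS and LPS + JQ1 had 8084 and 302 for Fcgr1, and 10999 and 2279 for Itgam. The macrophage markers Lyz2, Mertk and Cd14 were higher with JQ1 alone than in unstimulated cells. During LPS only Lyz2 of these was higher with JQ1. LPS and LPS + JQ1 had 110781 and 140677 for Lyz2, 1557 and 780 for Mertk, and 31889 and 27983 for Cd14. In mean normalized counts, the macrophage markers Adgre1 and Cd68 were lower with JQ1 both with and without LPS.

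**Figure D3:**
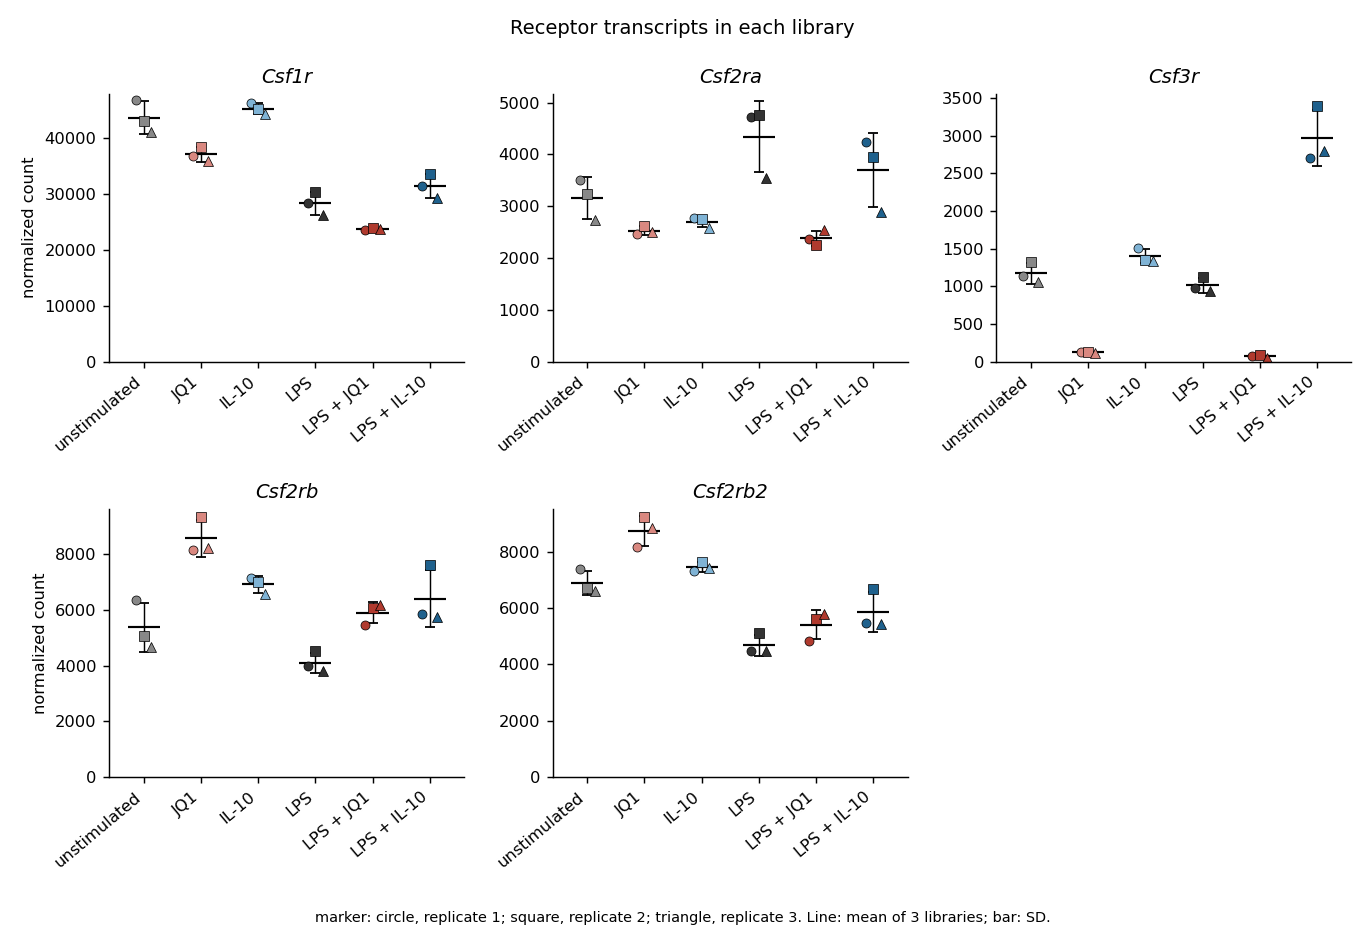
Normalized counts of the 5 receptor genes in each of the 18 libraries, by group, on linear axes from 0, with the mean of 3 libraries as a line and the SD as a bar. Csf3r lies near 0 in both JQ1 groups and peaks with LPS + IL-10, Csf1r is lower in all LPS groups, and both beta chain genes peak with JQ1 alone.

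The order of the groups differed between genes. For Csf1 it was LPS, LPS + JQ1 and LPS + IL-10, each apart from the next, followed by the 3 groups without LPS, which overlapped. Csf3 was highest with LPS + IL-10, then LPS, with LPS + JQ1 overlapping the groups without LPS. Csf1r was highest with IL-10 alone and in unstimulated cells, which overlapped, followed by JQ1, then by LPS + IL-10 and LPS, which overlapped, and LPS + JQ1 was lowest. For Csf2ra each group overlapped the next in order, from LPS at the top to LPS + JQ1 at the bottom, and with total-count scaling or TPM unstimulated cells came first. Csf2rb was highest with JQ1 and lowest with LPS, both apart from their neighbors in the order, and the other 4 groups overlapped their neighbors. Csf2rb2 was highest with JQ1, and with IL-10 on the TPM scale. Csf3r ran from LPS + IL-10 through IL-10, unstimulated and LPS, the last 2 of which overlapped, down to JQ1 and LPS + JQ1.

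On the length-scaled TPM measure, genes can be compared within a library. In unstimulated cells Csf1r had a mean of 1622 ± 120 TPM (SD, n = 3), followed by Csf2ra at 261 ± 32, Csf2rb2 at 209 ± 15, Csf2rb at 161 ± 28 and Csf3r at 43.3 ± 3.5. The ligands followed at 2.92 ± 1.14 TPM for Csf1 and under 0.1 TPM for Csf3, and Csf2 was at 0. In LPS libraries Csf1 came second, at 292 ± 17 TPM, after Csf1r at 613 ± 37. Csf2 then had 32.1 ± 3.6 TPM, above the receptor gene Csf3r at 21.9 ± 2.2 TPM, and the ranges of these genes did not overlap. With LPS + JQ1, Csf3r was at 1.87 ± 0.51 TPM, against 69.3 ± 11 with LPS + IL-10.

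The ratio of Csf1r to Csf1 transcripts shifted with LPS, which does not measure the CSF1 protein that was supplied in the medium. Csf1r TPM exceeded Csf1 TPM 421-fold to 785-fold in unstimulated libraries and 1.87-fold to 2.24-fold in LPS libraries. The ratio was 2.53 to 3.00 with LPS + JQ1 and 4.73 to 10.7 with LPS + IL-10, so each of these groups lay wholly above the LPS group. The summed TPM of both beta chain genes, of which Csf2rb2 serves the IL-3 receptor, over that of Csf2ra was 1.42 ± 0.09 (SD, n = 3) in unstimulated cells and 0.75 ± 0.10 with LPS. It was 2.49 ± 0.08 with JQ1 and 1.74 ± 0.16 with LPS + JQ1, in both cases above every control library, by an exact two-sided permutation test at p = 0.1, the smallest that 3 libraries against 3 allow. IL-10 raised the mean to 1.94 ± 0.05 without LPS and 1.24 ± 0.23 with LPS, again with no overlap and an exact permutation p of 0.1. Csf2rb made up 43.6% ± 2.5 of the counts of both beta chains in unstimulated cells, 49.5% ± 1.2 with JQ1, 46.7% ± 0.6 with LPS, 52.2% ± 0.8 when JQ1 was combined with LPS and 52.2% ± 0.9 when IL-10 was (SD, n = 3). The exact two-sided permutation p of that share was 0.2 for LPS and 0.1 for JQ1 and for IL-10, with and without LPS. These ratios are taken within a library and so do not depend on the size factors.

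**Figure D4:**
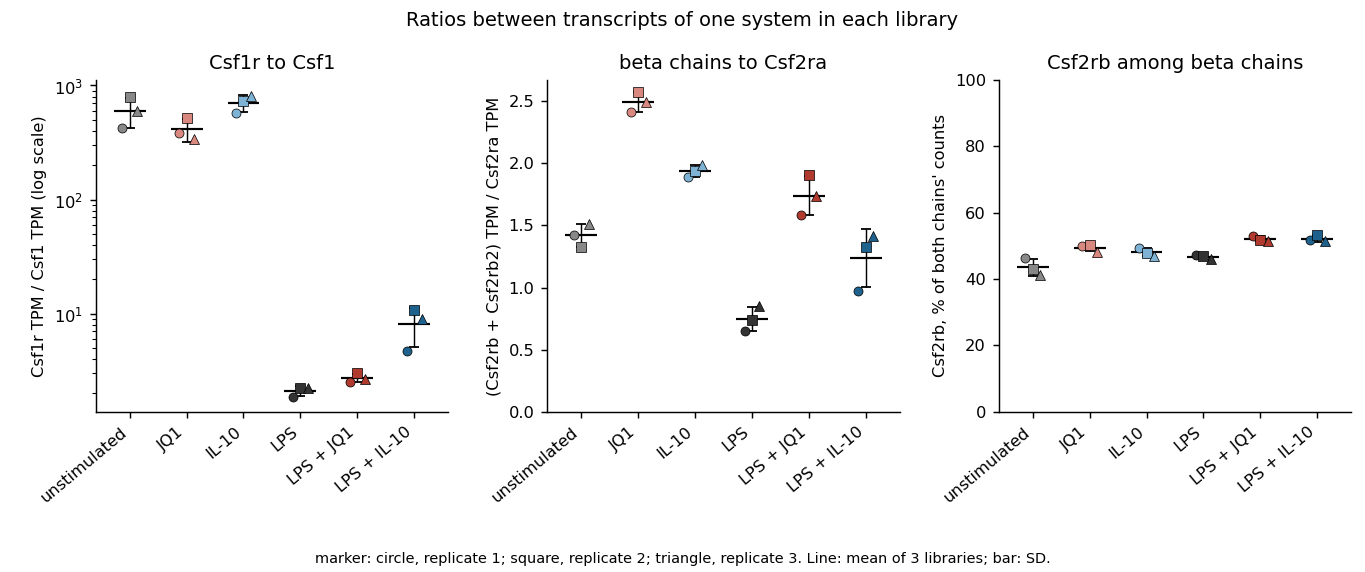
Ratios within each of the 18 libraries by group: Csf1r TPM over Csf1 TPM (log scale), the summed TPM of Csf2rb and Csf2rb2 over that of Csf2ra, and Csf2rb as a percent of the counts of both beta chains, with the mean of 3 libraries as a line and the SD as a bar. The first falls from over 400 to about 2 with LPS, and the second is above its control in every JQ1 and IL-10 library.

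Genes that act with the CSFs and their receptors were read from lists written for these systems. The counts of each list are to be read beside the shares of all genes tested that were called higher and lower. These were 31.6% and 32.9% for LPS, 24.4% and 32.9% for JQ1 during LPS, and 8.38% and 8.81% for IL-10 during LPS. The medians over all genes tested were -0.07, -0.11 and -0.02, in that order. Of the other ligands and receptors (Il34, Il3, Il5, Il3ra and Il5ra), 2 of 5 had an adjusted p and both, Il34 and Il3ra, rose with LPS. Il34, the other ligand of CSF1R, rose by 4.35 ± 0.95 SE and fell by 4.03 with JQ1 during LPS, from at most 29 counts in a library, and was named after its values were seen. Il3ra, the IL-3 receptor alpha chain, rose by 0.48 ± 0.13 SE with LPS and fell by 1.66 with JQ1 during LPS, when 2 of 2 were called lower. Il3 and Il5 had 0 counts in every library. IL-10 during LPS called 0 of the 1 tested by DESeq2.

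Of the 17 kinases, adaptors and STATs, 10 were called higher and 3 lower with LPS, with a median log2 difference of 1.06 beside -0.07 over all genes tested. Jak2, the kinase that serves the GM-CSF and G-CSF receptors, rose by 5.30 ± 0.11 SE and Akt1, a survival kinase, fell by 0.60. JQ1 during LPS lowered 12 and raised 1 (median -0.45 beside -0.11). Fgr, a Src-family kinase of myeloid cells, fell by 3.93 ± 0.40 SE and Pik3r1, a regulatory subunit of PI3 kinase, rose by 0.43 ± 0.10 SE. IL-10 during LPS raised 7 and lowered 3 (median 0.11 beside -0.02), and both of these genes went the other way, with Fgr at 1.91 ± 0.24 SE and Pik3r1 at -0.55 ± 0.10 SE.

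Of the 11 negative regulators, 7 were called higher and 4 lower with LPS (median 0.58 beside -0.07), where 31.6% and 32.9% of all genes tested were. Socs3, an inhibitor of G-CSF receptor signaling, rose by 8.42 ± 0.53 SE and Inpp5d, the phosphatase SHIP1, fell by 4.32. JQ1 during LPS lowered 5 and raised 0 of the 11 (median -0.67), and Dok2, an adaptor that restrains tyrosine kinase signaling, fell by 3.10. IL-10 during LPS raised 3 and lowered 2 (median 0.08), with Cbl, the ubiquitin ligase that turns over CSF1R, at 0.49 ± 0.07 SE and Cish, a STAT5 target and inhibitor, at -2.42 ± 0.52 SE.

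Of the 8 STAT5 and CSF target genes, 6 rose and 1 fell with LPS (median 1.92), with Ccl17, a chemokine induced by GM-CSF, at 8.67 ± 1.52 SE and Ccnd1, cyclin D1, at -1.27 ± 0.14 SE. JQ1 during LPS lowered 4 and raised 0 of the 8 (median -0.88), with Osm, the cytokine oncostatin M, at -2.95 ± 0.25 SE. IL-10 during LPS lowered all 8 (median -1.33), and Ccl17 fell by 3.28. Cish and Socs2 stand both in this list and among the negative regulators.

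Of the 3 genes of shedding of CSF1 and CSF1R, Rhbdf2, which brings the protease ADAM17 to the surface, rose with LPS by 3.52 ± 0.10 SE and Adam10 fell by 0.71, with 2 called higher and 1 lower. JQ1 during LPS lowered Adam17 by 0.95 ± 0.10 SE and raised Adam10 by 0.30 ± 0.13 SE, and IL-10 lowered Adam17 (-0.33 ± 0.10 SE). Of the 4 factors known to bind the Csf1r regulatory elements, 2 rose and 2 fell with LPS. Spi1, which encodes PU.1, rose by 2.02 ± 0.11 SE and Cebpa fell by 5.75, while JQ1 during LPS lowered Spi1 (-1.55 ± 0.11 SE) and raised Cebpa (2.73 ± 0.19 SE), the 1 gene of the list that it raised beside 2 that it lowered. IL-10 during LPS raised 3 of the 4, with Cebpb at 1.43 ± 0.19 SE.

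The genes whose pattern over the 18 libraries was most like each member were found among genes with a mean of at least 100 normalized counts, by Pearson correlation on log2(normalized count + 1). The libraries share treatments, so these values are descriptions. Csf3r was most like Itgam (r = 0.992), the CD11b integrin chain, and Sla (0.987). Csf1r was most like Usp35 (0.991) and Sh3pxd2b (0.986), and Csf1 like Rnf19b (0.997) and Stx6 (0.995). Csf2 had Irf8 (0.978) and Sele (0.976), and Csf3 had Stx2 (0.991) and Fzd1 (0.987). For Csf2ra and both beta chain genes the values were lower, with Atf6b (0.941) and Strn4 (0.925) for Csf2ra, Fam134a (0.875) and Cdk2ap2 (0.864) for Csf2rb, and Msrb1 (0.958) and Tmem189 (0.948) for Csf2rb2.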

How the data were processed

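Stranded, ribosomal RNA-depleted RNA-seq libraries of 18 cultures were aligned by the authors to mouse build mm9 with STAR and quantified with RSEM 1.2.31, as the labels and methods of the study give. The deposited expected counts are RSEM's estimated counts per gene, in which reads that match several genes are divided among them. Between 5.40% and 6.63% of genes in a library had a fractional value, and all values were rounded. TPM values, scaled for length and summed depth by the authors, were used as deposited. FPKM values were not used here. Whether strand was used in counting is not given in the sources used here. Groups and replicate numbers came from the sample titles, and lanes from the descriptions.

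The test was the Wald test of DESeq2 1.42.0 (R 4.3.3), which the methods of the study name for pairwise comparisons. The design was chosen here, with a coefficient for each group and no other term, fitted to the 18 libraries together after median-of-ratios scaling, with Benjamini-Hochberg adjustment at 0.05 over all genes. The Wald test was also run on simulated counts of a single pair of groups, with few changed genes and as many raised as lowered. That setting is simpler than the 6 groups and the shifts of scale here, so it cannot vouch for this design. Alternatives were edgeR 4.0.16, limma 3.58.1 on log2(TPM + 1) and log2(TPM + 0.1), other scalings, filters and terms, and fits without libraries. Ratios of counts have exact 95% intervals. Replicates differed by more than sampling noise (chi-square per degree of freedom 3.97 to 28.3 over 18 pairs). The labels call the groups matched, with 3 mice, but do not say that a replicate number names a mouse, so the fit with the number as a block is an alternative. The members, gene lists, the rule for named genes (all members, the strongest called gene of each list in each direction, and the 2 genes most like each member) and alternatives were chosen with earlier results of these data known. Positions come from GENCODE vM1 and sequences from the genome of the same build, with the Csf3r window placed at its RefSeq (GRCm38.p6) start.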

Additional observations from a re-analysis of the deposited data

Results flagged for a closer look

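The effect of a treatment differed with and without LPS, by a DESeq2 interaction test at an adjusted p under 0.05, in 4 cases. For JQ1 these were Csf2ra, at -0.55 on the log2 scale, and Csf3r, at -0.59. For IL-10 they were Csf1, at -1.45, and Csf3r, at 1.28. For JQ1, 2 of the 8 members passed, where 41.5% of all genes tested did. For IL-10, 2 of the 7 members with an adjusted p passed, where 7.44% of all genes tested did. The JQ1 differences were lost by edgeR, at adjusted p of 0.0536 for Csf2ra and 0.0639 for Csf3r. The IL-10 call for Csf1 was lost when any 1 of several libraries was left out (DESeq2 adjusted p 0.0532 to 0.122).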

How the results depend on the processing

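Over 71 comparisons of members, 1501 alternative values were computed, of which 1381 kept their direction and their side of the threshold, 48 passed it only under the alternative, 56 passed it only in the test as reported and 16 changed direction. The cause was not tested. With total-count scaling, limma on log2(TPM + 1) and limma on log2(TPM + 0.1), the LPS effect on Csf2ra was -0.47, -0.32 and -0.32 in untreated cells and -0.38, -0.29 and -0.29 in IL-10-treated cells. In that order the JQ1 effect on Csf1r during LPS was 0.12, 0.0543 and 0.0544, and its interaction of LPS and JQ1 was 0.53, 0.49 and 0.49. That interaction was also 0.0049 for Csf2ra, 0.40 for Csf2rb and 0.42 for Csf2rb2 with total-count scaling, and 0.15 for Csf3r by limma on log2(TPM + 1). Medians over all genes moved too. In the same order of settings they were -0.997, -0.63 and -0.81 for LPS in untreated cells and -0.88, -0.59 and -0.75 in IL-10-treated cells. They were 0.28, 0.13 and 0.19 for JQ1 during LPS, and 0.51, 0.36 and 0.45 for the interaction of LPS and JQ1.

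The number of members called for JQ1 without LPS ran from 3 to 5 when replicates or libraries were left out, with 3 without replicate 1. For IL-10 without LPS it was 1 with the replicate block and with only the groups compared, and 0 to 1 when libraries were left out. For IL-10 during LPS it was 7 by limma on log2(TPM + 1). For the interaction of LPS and JQ1 it was 0 with TMM factors and 0 by edgeR, and 1 to 3 with libraries left out. For that of LPS and IL-10 it was 1 with only the groups compared, 4 by limma on log2(TPM + 1), and 1 to 3 with libraries left out. With the replicate block as a term, 4 calls were gained: Csf1 for JQ1 during LPS (adjusted p 0.000786) and for the interaction of LPS and JQ1 (0.00417), Csf2rb for IL-10 without LPS (0.0294), and Csf1r for IL-10 during LPS (0.0358). It changed no other call, and with it the interaction of LPS and IL-10 for Csf1 had a DESeq2 adjusted p of 1.84e-06. That the numbers pair the libraries is not stated in the labels. Deviations of same-numbered libraries correlated at -0.124 to 0.469, with -0.124 to 0.0701 for JQ1 during LPS and 0.205 to 0.469 for IL-10 during LPS. Precision was low where counts were few: Csf2 had at most 7 counts in replicates 2 and 3 of LPS + IL-10, and Csf3 at most 1 in any LPS + JQ1 library.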
